A study of Rattus norvegicus with 196 samples.

Results

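The mediodorsal thalamus (MDT) was profiled by bulk RNA-seq in 8 libraries, which are those labelled with this region among 196 libraries from 25 rat brain regions. Rats aged 2 months drank water (Sham) or fluoxetine at 18 mg/kg (FT) for 6 weeks, and each group of 4 libraries carries the replicate numbers 1, 3, 4 and 5. According to the methods, the animals were male Long-Evans rats, each library pools punches from 10 of 40 animals per group, and FT and Sham libraries with the same number were processed in parallel. They were therefore compared as 4 pairs, and the p-values measure the spread between pools, not between single rats. The comparison asks which transcripts differ in the thalamus after chronic fluoxetine.

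The mediodorsal nucleus is a higher-order relay of the thalamus whose glutamatergic neurons exchange signals with the prefrontal cortex. Its relay cells use the vesicular glutamate transporter encoded by Slc17a6, switch between tonic and burst firing through their ion channels, and are inhibited by GABA from the reticular nucleus. Fluoxetine blocks the serotonin transporter, and serotonergic fibres from the raphe reach the thalamus. The nucleus lies beside the third ventricle and close to the habenula.

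Between 6144105 and 20144420 reads per library were counted on transcripts, and 13146 of 29188 transcripts passed the filter on low counts. The replicate 3 libraries stood apart. The 50 transcripts with the most reads took 56.3% of the reads in Sham 3 and 73.2% in FT 3, against 32.2% to 38.3% in the other 6 libraries, and totals were lowest in this pair. Reads outside annotated features ranged from 23.4% to 46.1% and were more frequent in replicates 4 and 5 than in replicate 1 in both groups. All values below are CPM, read counts divided by library size and scaled by TMM over the 8 MDT libraries, unless stated otherwise. Gene names come from a list of 1844 transcripts that the study called in several regions, so names exist mainly for transcripts with such calls, and 1820 of them were tested here.

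Thalamic identity was checked on markers of relay neurons. Of 15 listed, 5 had a named transcript, and 4 of them were highest in MDT among the 25 regions in both groups, namely Slc17a6, the transcription factors Tcf7l2 and Rora, and Plekhg1. On the scale set over all 196 libraries, Slc17a6 had a median of 392 CPM in Sham and 578 CPM in FT, and Tcf7l2 had 802 and 776 CPM. Cbln1, which encodes a synapse-organising protein, ranked 1st in Sham and 3rd in FT. None of the 7 habenula markers has a name in the list, so an admixture of habenula was not tested.

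These relay markers did not pass the test. Slc17a6 was at 344, 296, 565 and 399 CPM in Sham replicates 1, 3, 4 and 5 and at 689.8, 609, 505 and 465 CPM in the matching FT libraries. FT was higher in 3 of 4 pairs and the groups overlapped, with a log2FC of 0.52 ± 0.29 (SE) and an adjusted p of 0.694 by edgeR's quasi-likelihood test. The other markers had log2FC values from -0.23 to 0.10, and 0 of the 5 had an unadjusted p under 0.05.

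Cga was the 1 transcript called in MDT, at an adjusted p of at most 0.1 and a log2 change of at least 0.32 in size. This is 0.00761% of the transcripts tested with edgeR, and before adjustment 1041 transcripts (7.92%) had p under 0.05. Cga (ENSRNOT00000012385) encodes the alpha subunit shared by the glycoprotein hormones LH, FSH and TSH, which the anterior pituitary makes. It had 63, 7, 156 and 40 reads in Sham replicates 1, 3, 4 and 5, or 3.14, 1.99, 12.8 and 1.31 CPM. The FT libraries had 1, 0, 2 and 0 reads in the same order. Every FT library lay below every Sham library, and Sham 4 held most of the Sham reads.

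Cga fell in FT by 6.41 ± 0.60 (SE) on the log2 scale, with an adjusted p of 0.0131 in edgeR. From the summed reads, 266 in Sham and 3 in FT, Sham was 76.5-fold above FT, with an exact 95% interval from 25.9 to 373 that covers counting error alone. Within edgeR, the call was lost under 2 alternatives. Without replicate 4 the log2FC was -6.04 and the adjusted p 0.353, and without the replicate block, with the libraries unpaired, they were -6.32 and 1. DESeq2 gave Cga a log2FC of -6.32 and an unadjusted p of 1.19e-12. Its filter on low means removed the transcript, so DESeq2 gave no adjusted p and did not call Cga.

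Across the brain, Cga was highest in Arc, with Sham medians of 254 CPM there, 16.7 CPM in VMH, 12.3 CPM in VTA, 4.53 CPM in Raphe and 2.67 CPM in MDT on the scale set over all libraries. MDT thus ranked 5th of 25 regions in Sham and 19th in FT. The Sham ranges of VTA, Raphe and MDT overlapped. FT was lower in all 4 pairs in 3 regions, MDT, PVN and VTA, and higher in both pairs available in 2 regions, Arc and MPOA. In Raphe, Cga was at 0 CPM in the lowest FT library and at 187 CPM in the highest, so its level moved by library within a region.

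**Figure D1:**
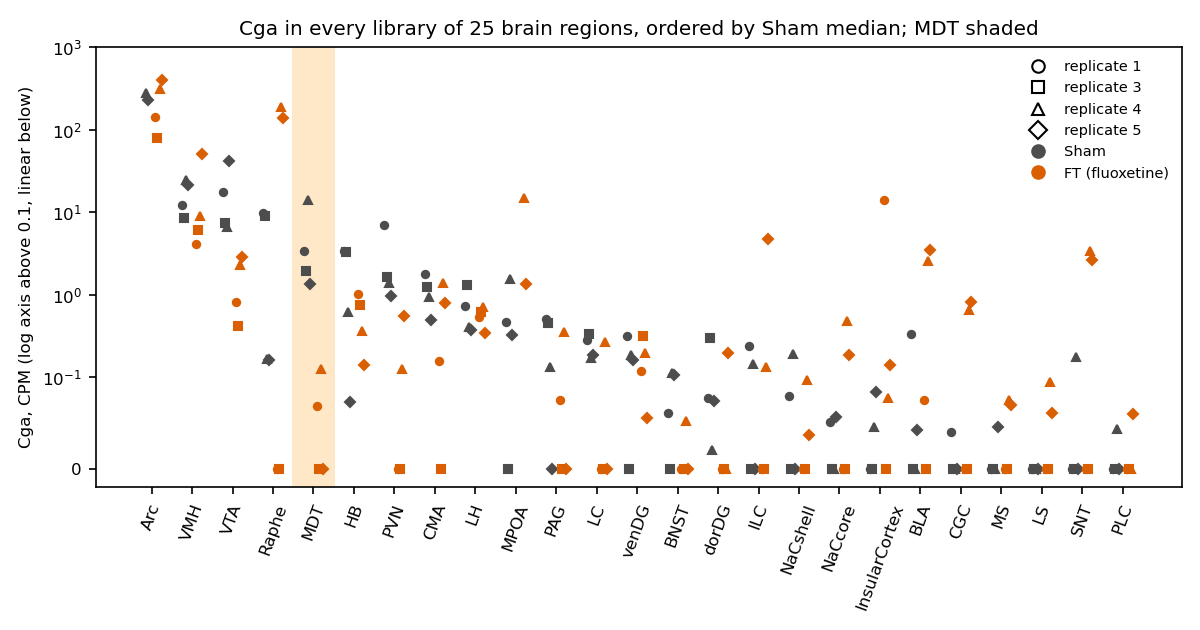
CPM of Cga in every library of 25 regions, on an axis that is logarithmic above 0.1 and linear below, with grey symbols for Sham, orange symbols for FT and shapes for replicate numbers. In the shaded MDT column all 4 Sham libraries lie above all 4 FT libraries, of which 2 are at 0.

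Apart from Cga, edgeR called no transcript, and the transcripts that follow are given with their values as a description. Of all transcripts tested, 561 had FT higher at an unadjusted p under 0.05 (4.27%) and 480 had FT lower (3.65%). FT was higher in 4 of 4 pairs for 1138 transcripts (8.66%) and lower for 1048 (7.97%). DESeq2 with the same pairs, which is the tool named in the methods, called 152 transcripts of the 7306 it could adjust (2.08%), 103 higher (1.41%) and 49 lower (0.671%). Without replicate 5, an alternative added after seeing the data, DESeq2 called 59 transcripts and the balance turned to 19 higher and 40 lower. Of the 152 calls with all pairs, 92 had FT higher in 4 of 4 pairs and 46 had FT lower, and 118 have a name. Among the named transcripts alone, DESeq2 called 8.25% of those it could adjust, 15.5% had FT higher in 4 of 4 pairs and 9.29% had FT lower. The study called them in several regions on libraries that include these, so these shares are not independent of its calls.

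Among named transcripts with the same direction in 4 of 4 pairs, Taf13 had the smallest p of those with FT higher. It encodes a subunit of the general transcription factor TFIID. Taf13 was at 34.0, 23.6, 98.7 and 61.6 CPM in Sham replicates 1, 3, 4 and 5 and at 85.5, 56.7, 213 and 183 CPM in FT. The ratios of the 4 pairs were close to each other, from 1.11 to 1.57 on the log2 scale, although the groups overlapped because replicates 4 and 5 were higher in both. The log2FC was 1.32 ± 0.20 (SE), with an adjusted p of 0.318 in edgeR and 7.36e-05 in DESeq2.

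Dnajc2, a ribosome-associated cochaperone gene, separated the groups fully. It was at 17.3, 22.5, 31.0 and 20.3 CPM in Sham and at 39.3, 52.3, 44.0 and 43.4 CPM in FT, with a log2FC of 1.00 ± 0.21. All FT libraries exceeded all Sham libraries for 89 of the transcripts tested (0.677%), so such a separation is not particular to Dnajc2. Ndufaf4, an assembly factor of respiratory complex I, had mean values of 29.0 CPM in Sham and 64.2 CPM in FT, with FT higher in each pair by 0.72 to 1.77 on the log2 scale. Nipa2, a magnesium transporter gene, had 17.9 and 39.2 CPM.

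C1qtnf4, which encodes a secreted protein of the C1q and TNF family, showed how far replicate 3 could stand from the rest. It was at 101 CPM in Sham 3 and 287 CPM in FT 3, whereas the other 6 libraries lay between 3.43 and 16.7 CPM. Within pairs FT was nevertheless the higher library each time, with a log2FC of 1.23 ± 0.23. Ttc9b had a log2FC of 0.96 ± 0.20 and Ankrd32 of 1.20 ± 0.23, with FT higher in every pair.

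Uxs1, Uba6 and Tmem65 completed the 10 with FT higher, and they had another pattern. Uxs1 makes UDP-xylose for proteoglycans, Uba6 activates ubiquitin, and Tmem65 encodes a mitochondrial membrane protein. Tmem65 was at 41.8, 21.1, 108 and 118 CPM in Sham and at 67.3, 36.8, 530.1 and 543 CPM in FT. The log2 ratio was thus 0.69 and 0.80 in pairs 1 and 3 and 2.29 and 2.20 in pairs 4 and 5, a step that Uxs1 and Uba6 shared. DESeq2 called all 10 of these transcripts higher, whereas their adjusted p in edgeR ranged from 0.318 to 0.494.

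Of the 10 with FT lower, Cga was described above. Nhp2l1 encodes a protein that binds U4 small nuclear RNA and box C/D small nucleolar RNA. It was at 78.2, 69.2, 95.8 and 68.8 CPM in Sham and at 38.7, 44.2, 47.1 and 35.1 CPM in FT, and the groups did not overlap. The log2FC was -0.92 ± 0.19, with adjusted p of 0.494 in edgeR and 0.0243 in DESeq2. Gda, the guanine deaminase gene, and Ndrg3 also had every FT library below every Sham library, which held for 70 transcripts in all (0.532%). Gda had means of 11.6 CPM in Sham and 4.34 CPM in FT, and Ndrg3 had 10.4 and 3.05 CPM.

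Rbx1, the RING subunit of cullin ubiquitin ligases, was at 131, 319.6, 150.3 and 77.1 CPM in Sham and at 63.8, 136, 53.3 and 51.6 CPM in FT, with a log2FC of -1.09 ± 0.22 and an adjusted p of 0.00849 in DESeq2. Fxyd6, a regulator of the sodium pump, had means of 5.92 and 2.02 CPM, Mpdu1 had 27.0 and 14.5 CPM, and Nrep had 14.2 and 5.53 CPM. The last of these was at 42.1 CPM in Sham 3 and at most 5.81 CPM in the other Sham libraries. Hbb and Hbb-b1, which encode beta globins, were also among the 10 and are described with the blood markers. Of transcripts without a name, the 2 with the smallest p and FT higher were ENSRNOT00000068345 (log2FC 1.58 ± 0.29) and ENSRNOT00000072666 (1.09 ± 0.20), and those with FT lower were ENSRNOT00000071687 (-2.50 ± 0.39) and ENSRNOT00000037043 (-1.60 ± 0.25).

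**Figure D2:**
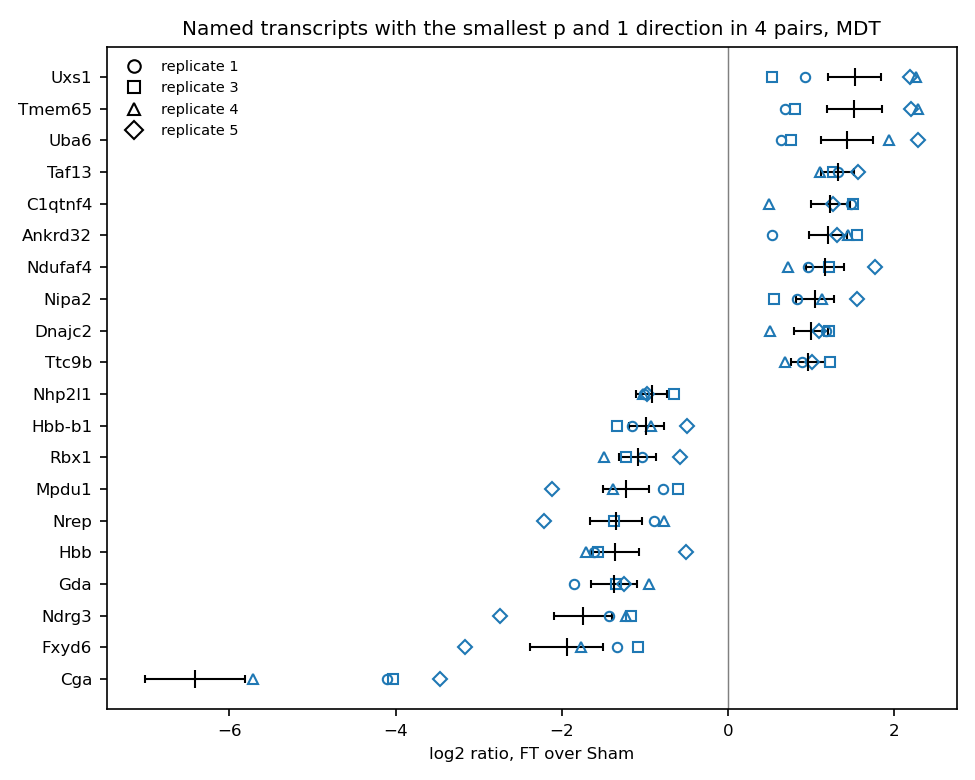
Log2 ratio of FT over Sham for the 20 named transcripts with the smallest p and 1 direction in 4 pairs, with each pair as a blue symbol and the fitted log2FC and its SE as a black bar. Pairs of Taf13 and Nhp2l1 lie close together, pairs 4 and 5 of Uxs1, Tmem65 and Uba6 lie apart from pairs 1 and 3, and the fitted Cga value of -6.41 lies below its 4 pair ratios, which carry a prior count.

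The step between pairs 1 and 3 and pairs 4 and 5 was not limited to these transcripts. FT exceeded Sham by more than 1.5 on the log2 scale in both pair 4 and pair 5 for 130 transcripts, and in the other 5 couples of pairs for 1 to 30 transcripts. The counts of transcripts lower by as much in both pairs were 41 for pairs 4 and 5, 76 for pairs 1 and 3 and 14 to 47 for the others. Over the 130 transcripts, the median log2 ratio was 0.02 in pair 1 and -0.01 in pair 3, and FT was higher in pair 1 for 66 and in pair 3 for 60 of them. A name exists for 103 of the 130 (79.2%), against 13.8% of all transcripts tested, and 50 of the 130 are among the 103 that DESeq2 called higher.

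Ctnnb1, which encodes beta-catenin and was named after its values were seen, belongs to these 130. It was at 345, 176, 423 and 508 CPM in Sham and at 585, 258, 3611 and 4160.0 CPM in FT, so FT 4 and FT 5 lay far above the other 6 libraries. Others were Smarca5, Dhx36, Ube3a, Mrpl51, Tsc22d2, Lrtm2, Nr2c1 and Cirbp, which return in their groups below.

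The other 24 regions were then read for this set, with the agreement of replicates 4 and 5 across the series already known, so they give no independent support. The median level of the 103 named transcripts, as log2(CPM + 1) scaled over all libraries, was 7.75 in FT 4 and 7.88 in FT 5 of MDT and 5.41 and 5.56 in the paired Sham libraries. The set was chosen by these MDT libraries, so this difference follows from the choice. Replicates 4 and 5 each had FT higher in all 24 other regions, whereas replicate 1 had FT higher in 10 and replicate 3 in 7 of 22. In Sham, the other regions had medians of 5.04 and 4.39 for replicates 1 and 3 and of 6.22 and 5.88 for replicates 4 and 5. The level therefore moved with the replicate number, and FT was higher in every other region only in replicates 4 and 5. The part of processing in this pattern was not tested. In MDT, reads outside annotated features made up 46.1% and 41.1% in FT 4 and FT 5 and 33.0% and 45.0% in Sham 4 and Sham 5. Their relation to the level of the set was not tested.

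**Figure D3:**
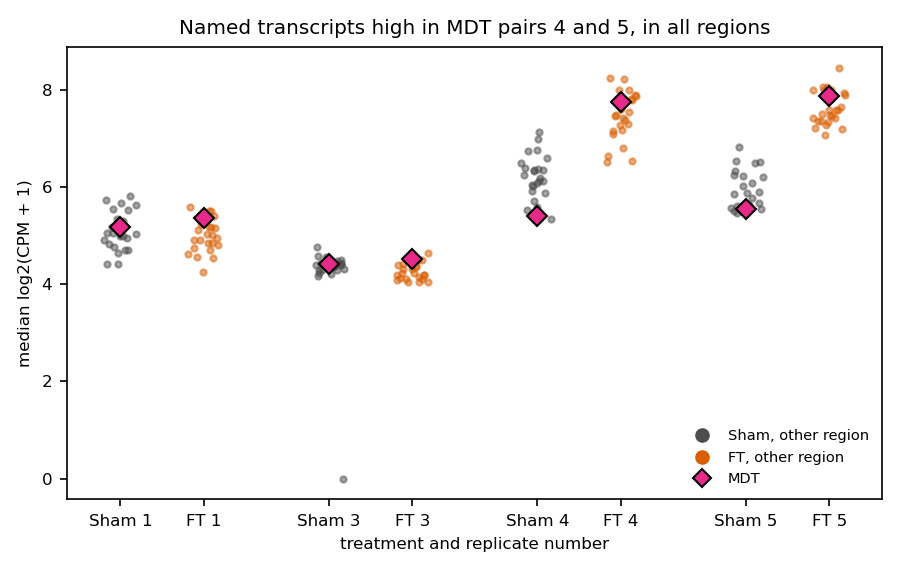
Median log2(CPM + 1) of the 103 named transcripts high in MDT pairs 4 and 5, by treatment and replicate number, with a diamond for MDT and dots for the other regions. FT 4 and FT 5 lie above Sham 4 and Sham 5 in MDT, by which the set was chosen, and in the other regions. In MDT, replicates 1 and 3 of both groups lie at 4.42 to 5.37. The dot at 0 is a library with few reads.

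Genes that the study names as changed were followed in MDT, some across many regions and others, such as Fzd6 and Nr2c1, as region-specific. They were chosen by the study on libraries that include these, so their direction is not independent evidence. Of 41 listed, 40 have a name, 39 were tested and Chrm1 was too low. At an unadjusted p under 0.05, 10 had FT higher and 7 had FT lower, against 14.6% and 8.52% of all named transcripts, edgeR called 0 of them and DESeq2 called 3 higher and 2 lower. The median log2FC was -0.31, against -0.01 for all transcripts tested and 0.11 for the named ones.

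Among receptor and transporter genes in this list, Gabrb2, a GABA-A receptor subunit, was at 8.18, 13.7, 10.6 and 19.3 CPM in Sham and at 3.82, 12.1, 5.66 and 4.16 CPM in FT. Its log2FC was -1.13 ± 0.34 (adjusted p = 0.513 in edgeR). Grin2c, an NMDA receptor subunit, was at 16.6, 23.1, 25.1 and 21.1 CPM in Sham and at 25.2, 38.3, 28.4 and 33.0 CPM in FT, a narrow separation with a log2FC of 0.54 ± 0.20. The GABA transporter gene Slc6a11 had a log2FC of -1.03 ± 0.31, with FT lower in 4 of 4 pairs. Slc7a10, a transporter of small neutral amino acids, had 0.73 ± 0.27, and the proline transporter gene Slc6a7 had -1.05 ± 0.46, both with 1 pair the other way. The potassium channel gene Kcna2 had -1.55 ± 0.45, and the vesicle fusion gene Napb had -0.82 ± 0.32.

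Cds2, which acts in phosphoinositide synthesis, was at 1.35, 112, 2.54 and 5.91 CPM in Sham and at 0.849, 61.5, 0.700 and 0.478 CPM in FT. FT was lower in each pair, but replicate 3 lay far above the rest in both groups. Mat2a, which makes S-adenosylmethionine, had a log2FC of -1.31 ± 0.42, with a ratio of -2.96 in pair 5 and 0.09 in pair 4. DESeq2 called both lower. Of those with FT higher, Angptl6, Fzd6 and Ttc9b were called by DESeq2.

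Angptl6, a secreted angiopoietin-like factor, had 3.69, 0.569, 0.409 and 9.14 CPM in Sham and 4.43, 2.94, 12.6 and 64.3 CPM in FT. The Wnt receptor gene Fzd6 had log2 ratios of 2.37 and 2.16 in pairs 4 and 5 and 0.49 and -0.04 in pairs 1 and 3. Lrtm2, Nr2c1 and Cirbp had this step too, at 3.32 and 2.71, 3.46 and 2.52, and 4.65 and 3.88 in pairs 4 and 5, and between -1.03 and 0.36 in the others. Trim28, a chromatin corepressor gene, had 0.21 and 0.21 in pairs 1 and 3 and 0.90 and 1.28 in pairs 4 and 5, and Jmjd6 had 0.11 in pair 1 and 1.22 and 1.32 in pairs 4 and 5. The remaining 22 members had log2FC values from -1.26 to 0.81.

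All members of the gene lists below are named transcripts, so their counts at p under 0.05 are read against the 14.6% of named transcripts with FT higher and the 8.52% with FT lower, beside 4.27% and 3.65% of all transcripts. Inhibition and excitability were described with lists of receptors and channels. All 6 GABA and glycine receptor transcripts tested had a negative log2FC, with a median of -0.57, and 2 had p under 0.05. Beside Gabrb2 this was Gabrg1, at 22.5, 27.9, 13.9 and 21.0 CPM in Sham and at 8.97, 17.7, 13.4 and 12.4 CPM in FT. Of 7 glutamate receptor transcripts, Grin2c alone had p under 0.05, and the median log2FC was -0.31.

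Of 17 ion channel transcripts of thalamic firing, 4 had FT lower and 1 had FT higher at p under 0.05, with a median of -0.48. Of all named transcripts, 8.52% had FT lower and 14.6% had FT higher. Hcn2, a pacemaker channel of relay neurons, was at 11.5, 67.2, 22.2 and 9.50 CPM in Sham and at 11.2, 65.5, 2.27 and 3.06 CPM in FT. The ratio was -0.03 and -0.04 in pairs 1 and 3 and -3.22 and -1.59 in pairs 4 and 5, with a log2FC of -1.16 ± 0.49. Kcnab3, a potassium channel beta subunit, had 0.78 ± 0.24 with FT higher in each pair. The channel list had a median ratio of -1.49 in pair 5 and between -0.26 and 0.08 in the other pairs, so pair 5 lay apart from them.

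Of 22 synaptic vesicle and release genes tested, 8 had FT lower and 0 had FT higher at p under 0.05, against 8.52% and 14.6% of all named transcripts, with a median log2FC of -0.33. The median ratio was -1.23 in pair 5, against -0.22, -0.42 and -0.20 in pairs 1, 3 and 4, so pair 5 lay apart here too. In this list edgeR called 0 and DESeq2 called 1, Cplx2, a complexin that regulates fusion, at 10.4, 103, 18.7 and 9.37 CPM in Sham and at 7.52, 62.2, 1.92 and 2.73 CPM in FT. FT was lower in every pair, with log2 ratios of -0.47 and -0.73 in pairs 1 and 3 and -3.19 and -1.73 in pairs 4 and 5. Dlg4, the postsynaptic scaffold PSD-95, had -0.88 ± 0.26, Scamp5 had -1.23 ± 0.36 and Pacsin1 had -1.15 ± 0.41. The pan-neuronal gene Tubb3 had -0.95 ± 0.30, with FT lower in each pair, and 1 of 4 pan-neuronal transcripts had p under 0.05.

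Cytosolic ribosomal protein transcripts gave 8 of 27 with FT lower and 0 with FT higher at p under 0.05, a median log2FC of -0.47 and 11 with FT lower in 4 of 4 pairs. Among named transcripts these shares were 8.52% at p under 0.05 and 9.29% in 4 of 4 pairs, and the median ratio of the list was below 0 in each pair, from -0.77 to -0.26. DESeq2 called 3 of them lower, 2 transcripts of Rpl37 and 1 of Rpl32, and edgeR called 0. The more abundant Rpl37 transcript was at 735, 1538, 1390 and 428 CPM in Sham and at 465, 888, 294 and 262 CPM in FT, with a log2FC of -1.09 ± 0.33. Rpl41 had -0.92 ± 0.36, and Rps19 had means of 432 CPM in Sham and 254 CPM in FT. The ratio was lowest in pair 4 for Rpl37, Rpl32, Rps19 and Rpl41. Ribosomal protein genes have many near-identical pseudogene copies, and how reads of this group were assigned among copies was not tested.

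Mitochondrial ribosome transcripts had 3 of 28 with FT higher and 0 with FT lower at p under 0.05, and a median of 0.25, and DESeq2 called Mrpl51. That count is no larger than the 14.6% of named transcripts with FT higher would give, and the median ratio was -0.07 and -0.35 in pairs 1 and 3 and 0.26 and 0.78 in pairs 4 and 5. Mrps15 was at 42.4, 87.1, 72.5 and 36.6 CPM in Sham and at 83.0, 118, 89.2 and 76.8 CPM in FT, and Mrps35 had a log2FC of 0.70 ± 0.23. Mrpl51 was at 70.2 and 22.5 CPM in Sham 1 and Sham 3 and at 72.3 and 23.6 CPM in their FT pairs, but at 945 and 1022 CPM in FT 4 and FT 5 against 133 and 114 CPM in Sham.

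In the respiratory chain and ATP synthase, 1 of 34 transcripts had FT higher and 2 had FT lower at p under 0.05, both below the shares among named transcripts. The median log2FC was 0.18, with 23 transcripts above 0 and 11 below. The median ratio was -0.11, -0.47 and -0.06 in pairs 1, 3 and 4 and 0.75 in pair 5, so pair 5 lay apart. Sdhc, a subunit of succinate dehydrogenase, was at 563, 630.2, 576 and 298 CPM in Sham and at 328, 304, 291 and 241 CPM in FT, with a log2FC of -0.78 ± 0.24 (adjusted p = 0.54 in edgeR and 0.077 in DESeq2). Atp5h, the other DESeq2 call, had -1.15 ± 0.29, and Atp5j2 had 0.95 ± 0.33. None of 8 mitochondrially encoded transcripts had p under 0.05 in edgeR and none was called by either tool, with a median of -0.09.

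Chromatin regulators gave 8 of 38 with FT higher and 1 with FT lower at p under 0.05, a median of 0.19 and 3 DESeq2 calls, all higher. Beside this, 14.6% of named transcripts had FT higher and 8.52% had FT lower, and DESeq2 called 8.25% of those it could adjust. Smarca5, the ATPase of ISWI remodelling complexes, was at 71.6, 50.4, 148 and 104 CPM in Sham and at 132, 73.2, 627 and 704 CPM in FT, with FT higher in each pair. Cbx5, which encodes heterochromatin protein HP1 alpha, had a log2FC of 1.15 ± 0.29. It also belongs to the 130 transcripts high in pairs 4 and 5, with 1.55 and 1.92 there and 0.73 and 0.39 in pairs 1 and 3. Atrx, a remodeller of heterochromatin, had its larger ratios in pairs 1 and 3 (1.30 and 1.01) and not in pairs 4 and 5 (0.65 and 0.34), and every FT library exceeded every Sham library. Prmt1, an arginine methyltransferase gene, had -0.86 ± 0.27.

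RNA splicing and helicase genes had 7 of 30 with FT higher and 1 with FT lower at p under 0.05, against 14.6% and 8.52% of named transcripts, and a median of 0.23. The median ratio was -0.05 and 0.05 in pairs 1 and 3 and 0.53 and 0.41 in pairs 4 and 5. Rsrc1, a splicing factor gene, was at 50.3, 88.8, 60.0 and 55.7 CPM in Sham and at 98.8, 166, 97.9 and 103 CPM in FT, with similar ratios from 0.70 to 0.97 in the 4 pairs. Its log2FC was 0.87 ± 0.19, with an adjusted p of 0.494 in edgeR and 0.0254 in DESeq2. Luc7l2 had 0.70 ± 0.20, also spread over all pairs, whereas Dhx36, a G-quadruplex helicase gene, had 2.46 and 2.27 in pairs 4 and 5 and 0.35 and 0.62 in pairs 1 and 3. U2af2 had -1.27 ± 0.48 at low counts.

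Ubiquitin and proteasome genes had 4 of 34 with FT higher and 2 with FT lower at p under 0.05, and a median of 0.15. Both counts lie below the shares among named transcripts, 14.6% and 8.52%. Ube3a, the ubiquitin ligase lost in Angelman syndrome, had 1.15 ± 0.34, with 2.02 and 1.78 in pairs 4 and 5 and 0.47 and 0.31 in pairs 1 and 3. In methionine and one-carbon metabolism, Sms, which makes spermine, had 0.77 ± 0.26, and Mat2a is given above.

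Of the activity-induced and stress-responsive genes, 3 of 10 had FT higher and 0 had FT lower at p under 0.05, against 14.6% and 8.52% of named transcripts, with a median of 0.71. Ppp1r15a, a phosphatase subunit of the stress response, was at 16.5, 10.2, 4.01 and 14.5 CPM in Sham and at 26.6, 15.1, 16.0 and 20.7 CPM in FT. Fos, an immediate early gene, was at 26.8, 23.9, 4.67 and 17.8 CPM in Sham and at 38.9, 22.8, 27.8 and 25.3 CPM in FT, with a log2FC of 0.86 ± 0.38. Its ratio was 2.54 in pair 4, where Sham was low, and between -0.07 and 0.53 in the other pairs. Tsc22d2 had 2.59 and 3.01 in pairs 4 and 5 against 0.43 and -0.04. Among circadian output genes, Cirbp, a cold-inducible RNA-binding protein gene, had a log2FC of 2.08 ± 0.92, with its pair ratios given above.

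Serotonin genes could be followed only in part. Of 24 listed, 5 have a name, Htr1a was too low to test, and the other 4 are enzymes and a regulator of tetrahydrobiopterin metabolism, with log2FC values from 0.18 to 0.43. In edgeR 0 of the 4 had an unadjusted p under 0.05, and DESeq2 called 0. Spr, sepiapterin reductase, was at 18.9, 33.9, 14.2 and 10.1 CPM in Sham and at 24.7, 35.0, 11.1 and 21.3 CPM in FT.

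**Figure D4:**
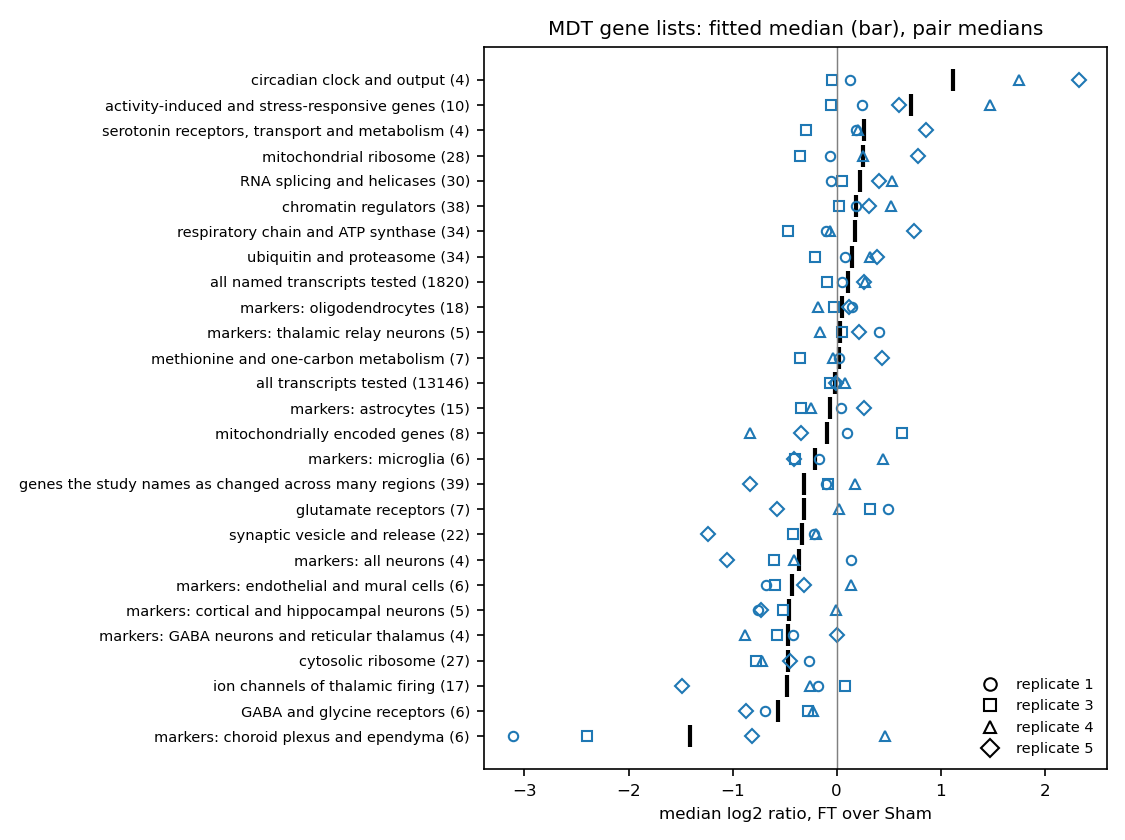
Median log2 ratio of FT over Sham for each gene list in MDT, with the number of transcripts tested in brackets, a black bar for the median of the fitted log2FC values and blue symbols for the median of each pair. Pair 5 lies far to the left for ion channels (-1.49) and pairs 1 and 3 lie far to the left for choroid plexus and ependyma (-3.11 and -2.40).

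Markers of other cell types were followed by lists. Fewer cells of a type and less RNA per cell cannot be told apart in such bulk samples. Choroid plexus and ependyma line the ventricle beside the nucleus, and 3 of their 6 markers had FT lower at p under 0.05, against 8.52% of all named transcripts, with a median log2FC of -1.41. Ttr, the transthyretin made in bulk by choroid plexus, was at 1160.4, 3641, 99.7 and 91.7 CPM in Sham replicates 1, 3, 4 and 5 and at 18.8, 80.2, 57.7 and 23.4 CPM in FT. All Sham libraries lay above all FT libraries, but by a wide margin only in Sham 1 and Sham 3. The log2FC was -3.58 ± 0.93, with adjusted p of 0.494 in edgeR and 0.0439 in DESeq2, and it was -2.60 without replicate 1 and -2.69 without replicate 3.

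Kcnj13, Sostdc1 and Mfrp of the same list were lower in FT in pairs 1, 3 and 5 but not in pair 4. Tekt1, a gene of motile cilia, was at 3.49, 7.12, 3.60 and 4.11 CPM in Sham and at 1.94, 2.94, 1.34 and 2.25 CPM in FT, with a log2FC of -1.08 ± 0.32, while Tekt4 had 0.39 ± 0.50. The summed level of the 6 markers ranged from 105 to 3670 CPM in Sham and from 27.3 to 87.6 CPM in FT, and Sostdc1 was at 0 in FT 3. Ttr and Cga were both lowest in FT. Cga was highest in Sham 4, where Ttr was near the FT range. What these cells contribute to other transcripts, Cga included, was not tested.

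Blood was represented by Hbb and Hbb-b1. Hbb was at 322, 1956, 194 and 76.6 CPM in Sham and at 105, 659, 59.1 and 53.9 CPM in FT, with a log2FC of -1.36 ± 0.28, and Hbb-b1 had -0.98 ± 0.21. FT was lower in 4 of 4 pairs for both, and DESeq2 called both lower, at adjusted p of 0.0017 and 0.0254. Their summed level ranged from 101 to 2182 CPM in Sham and from 71.2 to 748 CPM in FT. Among endothelial and mural markers, 2 of 6 had FT lower at p under 0.05, among them Myl9 with -0.68 ± 0.24.

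Oligodendrocyte markers gave no call. In edgeR 0 of 18 had an unadjusted p under 0.05, DESeq2 called 0, and the median log2FC was 0.05, with summed levels of 1124 to 1570 CPM in Sham and 1150 to 1455 CPM in FT. Astrocyte markers had 1 of 15 in each direction and a median of -0.06, but their sum was 38610 CPM in Sham 3 and 23930 CPM in FT 3 against 1860 to 4560 CPM elsewhere. Of 6 microglia markers, 1 had FT lower, with a median of -0.21. Cortical and hippocampal markers had 1 of 5 with FT lower, C1ql3 with -0.88 ± 0.22.

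GABA neuron markers gave Sst, the somatostatin gene, with FT lower in 4 of 4 pairs at 16.0, 54.6, 9.58 and 15.5 CPM in Sham and at 10.5, 29.8, 5.31 and 9.66 CPM in FT. The pair ratios were alike, from -0.87 to -0.59, and the log2FC was -0.75 ± 0.20 (adjusted p = 0.494 in edgeR and 0.148 in DESeq2). Gad2, which makes GABA, had -0.35 ± 0.21 and FT lower in each pair, and Pvalb of reticular neurons had -0.58 ± 0.33 with pair 5 the other way. Vip, the other marker tested, went the other way with a log2FC of 0.53. On the scale set over all libraries, it was at 28.6, 13.8, 52.8 and 12.9 CPM in Sham. In FT it was at 71.2, 33.2, 26.6 and 20.4 CPM, so FT was lower only in pair 4.

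Other peptide genes were listed after Cga had been seen, so they are a description. Of the 15, 12 were tested, Nmb, Rln3 and Ucn were too low, and 6 had FT lower in 4 of 4 pairs, Cga and Sst among them. That held for 9.29% of named transcripts and 7.97% of all transcripts tested. Of the 12, 8 had a log2FC below 0 and 4 above 0, the highest at 0.61. The median ratio of the list was -0.90, -1.24 and -0.78 in pairs 1, 3 and 4 and 0.18 in pair 5. Oxt, the oxytocin precursor, was at 1.20, 95.1, 3.36 and 0.881 CPM in Sham and at 0, 6.99, 0.875 and 0.861 CPM in FT, so pair 5 hardly differed and Sham 3 stood far above. Avp, the vasopressin precursor, was under 1 CPM in 6 libraries and at 13.9 and 7.36 CPM in replicate 3. Cartpt had a log2FC of -0.97 ± 0.27.

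**Figure D5:**
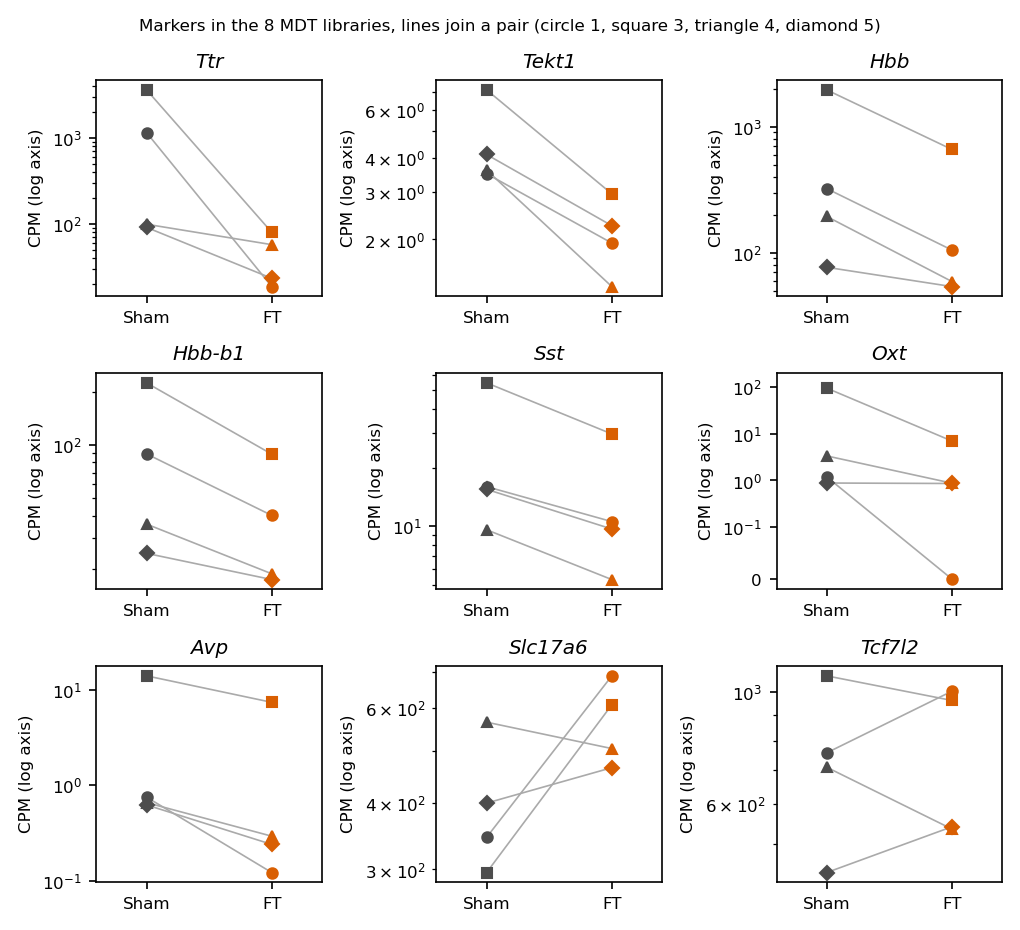
CPM on log axes of Ttr, Tekt1, Hbb, Hbb-b1, Sst, Oxt, Avp, Slc17a6 and Tcf7l2 in the 8 MDT libraries, with grey Sham symbols joined to orange FT symbols of the same pair (axes of Oxt and Avp are linear below 0.1). Lines slope down in all 4 pairs for the choroid plexus, blood and peptide genes shown, with replicate 3 on top in most panels, and cross for the thalamic markers Slc17a6 and Tcf7l2.

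The MDT response was set against that of HB, PVN and PLC by testing the difference of the 2 responses in joint fits. HB is the habenula beside the nucleus, and PLC is the prelimbic cortex that it innervates. In edgeR 0 transcripts passed for any of the 3 regions. Before adjustment, 431 of 14905 transcripts (2.89%) had p under 0.05 against HB, 1168 of 14518 (8.05%) against PVN and 89 of 14331 (0.621%) against PLC. DESeq2 called 2, 28 and 0.

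For Cga, the log2FC was -6.43 in MDT and -1.13 in HB in the joint fit, a difference of -5.29 ± 0.91 with an adjusted p of 0.471 in edgeR and 0.0323 in DESeq2. Against PVN the difference was -2.92 ± 1.54 and against PLC -6.98 ± 2.51, neither past the threshold. HB had 62, 10, 10 and 2 Cga reads in Sham and 19, 2, 8 and 3 in FT, so FT had fewer reads in 3 of 4 pairs there.

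Sst had a log2FC of -0.74 in MDT and 0.87 in HB, a difference of -1.61 ± 0.25 (adjusted p = 0.33 in edgeR and 8.3e-05 in DESeq2). Taf13 differed from PVN by 1.74 ± 0.42, Hbb by -1.79 ± 0.50 and Ttr by -4.68 ± 1.23, each with an adjusted p of 0.615 in edgeR and of 0.0551, 0.0551 and 0.0583 in DESeq2. Of the 20 leading named transcripts, 11 had p under 0.05 for the difference from PVN, 7 from HB and 2 from PLC. They were chosen by their MDT p-values, so these counts are a description. Avp had -1.35 in MDT and 2.97 in PVN, a difference of -4.32 ± 0.64 with an adjusted p of 0.111 in edgeR.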

How the data were processed

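The 8 MDT libraries were grouped and numbered by the labels. The authors deposited raw read counts per Ensembl transcript, made from paired 76 bp reads with STAR on rn5 and HTSeq (versions not given in the sources used here), without normalization. The 5 summary lines were dropped. The labels name polyA RNA, whereas the stated kit is for total RNA.

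Counts were fitted with edgeR 4.0.16 in R 4.3.3, using TMM factors, filterByExpr (minimum count 10, minimum total 15), blocking on replicate number, and tested by quasi-likelihood. Calls needed a p adjusted by Benjamini-Hochberg within 0.1 and a log2 change of 0.32 or more in size. Pair ratios used log2 CPM with a prior count of 2. Same-numbered FT and Sham libraries deviated together from their group means (r from 0.477 to 0.809), and the methods pair them. DESeq2 1.42.0 was an alternative.

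Named genes were the call, the 10 named transcripts per direction with the smallest p and 1 direction in 4 pairs, genes the study names, and list members with small p or high CPM. The transcripts and lists were chosen with earlier results of these data known. Depth limits transcripts with few reads. Some members of the lists are not reported here.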

Additional observations from a re-analysis of the deposited data

Results flagged for a closer look

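Within groups of 4 libraries, 38 values lay far from the other 3 by Dixon's test, of 190 groups of 4 tested. Chance flags about 1 in 20 groups. Of these, 21 were in FT 3, 14 in Sham 3 and 1 each in Sham 1, Sham 4 and FT 5. The share of reads in the 50 top transcripts was high in FT 3, at 73.2%.

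The CPM of FT 3 and Sham 3 were both far from their groups for C1qtnf4 (287 and 101), Hbb (659 and 1956), Nrep (16.2 and 42.1), Cds2 (61.5 and 112), Cplx2 (62.2 and 103), Scamp5 (14.7 and 43.8), Dlg4 (68.5 and 87.4), Pacsin1 (187 and 328), U2af2 (7.73 and 9.68), Oxt (6.99 and 95.1) and Avp (7.36 and 13.9).

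FT 3 stood apart for Rbx1 (136), Kcna2 (14.0), Slc6a11 (30.6), Napb (21.4), Hcn2 (65.5), RPL37 (35.7), Rpl32 (53.4), Atp5h (50.8) and Rsrc1 (166). Sham 3 stood apart for Tekt1 (7.12), Sst (54.7) and Mrps35 (59.8). All of these values were the highest of their group. The remaining ones were Cga in Sham 4 (12.8), Kcnj13 in Sham 1 (7.04) and Angptl6 in FT 5 (64.3).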

How the results depend on the processing

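The count of calls in MDT, 1 with edgeR, was 152 with DESeq2, 334 without the filter on low counts (210 higher and 124 lower) and 1 with median-ratio scaling. Without the replicate block, and so without the pairing of libraries, it was 0, with 195 transcripts at an unadjusted p under 0.05. Leaving out each replicate gave 0 to 17 calls, 0 without replicate 4 (1558 at p under 0.05) and 17 without replicate 1 (14 higher and 3 lower). DESeq2 alternatives, chosen after seeing the data, gave 161, 134, 107 and 59 calls without replicates 1, 3, 4 and 5, and without replicate 5 the split was 19 higher and 40 lower. Differences of response gave 2 calls against HB and 28 against PVN with DESeq2, and 0 to 10 against PVN with a replicate left out, 10 of them without replicate 4. For the adjusted p of Cga, the values were 1 without the block, 0.00713 with median-ratio scaling, 1.48e-16 without the filter and 0.0073 to 0.353 with a replicate left out. The sign of the log2FC turned for Rora without the block (0.094). With a replicate left out it ranged across 0 for Plekhg1 (-0.43 to 0.11), Rora (-0.53 to 0.17), Cbln1 (-0.16 to 0.23), Tcf7l2 (-0.091 to 0.19) and Tekt4 (-0.25 to 0.72). The cause of these changes was not tested. Cga rests on 3 FT reads, which limits its fold.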
